A study of Mus musculus with 6 samples.

Results

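Collagen chain genes and laminin chain genes were described in RNA from the substantia nigra of mice that carried rAAV-A53T-aSynuclein, fed ad libitum or kept on intermittent fasting. Members were chosen by gene symbol alone, as every row whose symbol was that of a collagen chain (Col, a type number, a and a chain number) or of a laminin alpha, beta or gamma chain. The rule found 54 genes, 43 collagen chains and 11 laminin chains, among the 19251 genes of the count table. All 54 passed the filter on low counts. Both groups were C57BL/6 mice with the rAAV-A53T-aSynuclein genotype, so no group lacked the vector, a recombinant adeno-associated virus whose name gives alpha-synuclein with the A53T change. The ad libitum group (3 libraries) always had food. In the intermittent fasting group (3 libraries) food was withheld for 24 hours on each of 3 days a week, from 2 weeks after surgery and for 10 weeks. Both groups were moved between cages alike. Age, sex, the promoter of the vector and how long before collection the last fast ended are not stated in the sources used here.

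Collagens are proteins of 3 chains wound into a triple helix, and each kind of chain has its own gene. Fibrillar collagens form the cables of connective tissue, and type IV collagens form the sheet of basement membranes. Laminins join 1 alpha, 1 beta and 1 gamma chain into a cross-shaped molecule that lays down the basement membrane and binds cell receptors. In the brain, basement membranes surround blood vessels and underlie the pia, while fibrillar collagens are made mostly by fibroblasts of the meninges and of large vessels. Endothelial cells, pericytes, fibroblasts and astrocytes all contribute chains, and some collagens are made by neurons.

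The 6 libraries held 42990234 to 48179706 estimated counts, and levels are CPM, counts per 1000000 after TMM scaling, with the libraries of a group given in the order of replicates 1, 2 and 3. Collagen and laminin genes took 0.0630% to 0.0771% of the counts of a library. Their summed level was 642, 732 and 764 CPM in the ad libitum libraries and 716, 707 and 738 CPM in the fasting libraries, so the groups overlapped. Dopamine neuron markers were present in each library, with Th, the enzyme that starts dopamine synthesis, at 86.3, 92.6 and 236 CPM ad libitum and 105, 189 and 93.7 CPM under fasting. Ad libitum libraries stood apart from each other over the whole table. Chi-square per degree of freedom, which is near 1 where 2 libraries differ by counting noise only, was 42.8 to 77.6 between ad libitum libraries and 8.17 to 19.6 between fasting libraries. Ad libitum replicate 1 was nearer to each fasting library (28.7 to 30.95) than to the other ad libitum libraries. Nothing in the labels ties the libraries to separate mice, and the p-values measure the spread between these libraries, which may be technical. In bulk RNA, fewer cells of a type and less RNA per cell cannot be told apart.

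Under intermittent fasting no collagen or laminin gene passed the test over all genes. By edgeR, 0 of 54 had an adjusted p below 0.05, where 0.497% of the 19109 genes tested did (0.147% higher and 0.351% lower). At an unadjusted p below 0.05 there were 13 of 54 (24.1%), 6 higher and 7 lower, against 20.4% of all genes tested (8.74% higher and 11.6% lower). The smallest adjusted p was 0.0599, in Col18a1 and Col6a6. The 54 genes were split evenly, with 27 above and 27 below 0, and their median log2 fold change (fasting minus ad libitum) was 0.0020, against -0.0050 over all genes tested. The median size of these differences was 0.27 on the log2 scale for the 54 genes (0.40 for collagens and 0.20 for laminins) and 0.15 over all genes tested. The comparison was not matched for level or spread. The 54 genes had a median mean count of 267, against 596 over the whole table, and ranged more widely between ad libitum libraries. The diets did not overlap in 14 of 54 genes (25.9%), where 27.5% of all genes tested did not. Fasting libraries all lay above the ad libitum libraries in 9 genes, where 12.5% of all genes tested did, and all below in 5, where 15% did.

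Other tools and subsets of libraries called some of them. DESeq2, by its Wald test, called 8 of 54, where it called 7.4% of the genes with an adjusted p: Col18a1, Col6a6, Col4a4, Col9a2, Col5a3 and Col11a1 as higher and Lama4 and Col6a2 as lower. limma-voom called 0 of 54, where it called 0.167% of genes, with 12 members and 20.3% of genes at an unadjusted p below 0.05. Without robust shrinkage edgeR called 0 of 54, where it called 0.0471% of genes, with 14 members and 20.6% of genes at an unadjusted p below 0.05. Without ad libitum replicate 1 edgeR called 8 of 54, where it called 6.18% of genes, and Col18a1, Col6a6, Lama4 and Col6a2 were in both sets. The other 4 of that set, all lower, were Col11a2, Col1a1, Lama2 and Col23a1. edgeR called 1 member without ad libitum replicate 2 (Col6a6) and 1 without fasting replicate 2 (Col18a1), where it called 0.235% and 0.354% of genes, respectively. It called 0 of 54 without ad libitum replicate 3, fasting replicate 1 or fasting replicate 3, where it called 0.00521%, 0% and 0% of genes, with 10, 8 and 6 members and 16.7%, 12.8% and 13% of genes at an unadjusted p below 0.05.

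**Figure D1:**
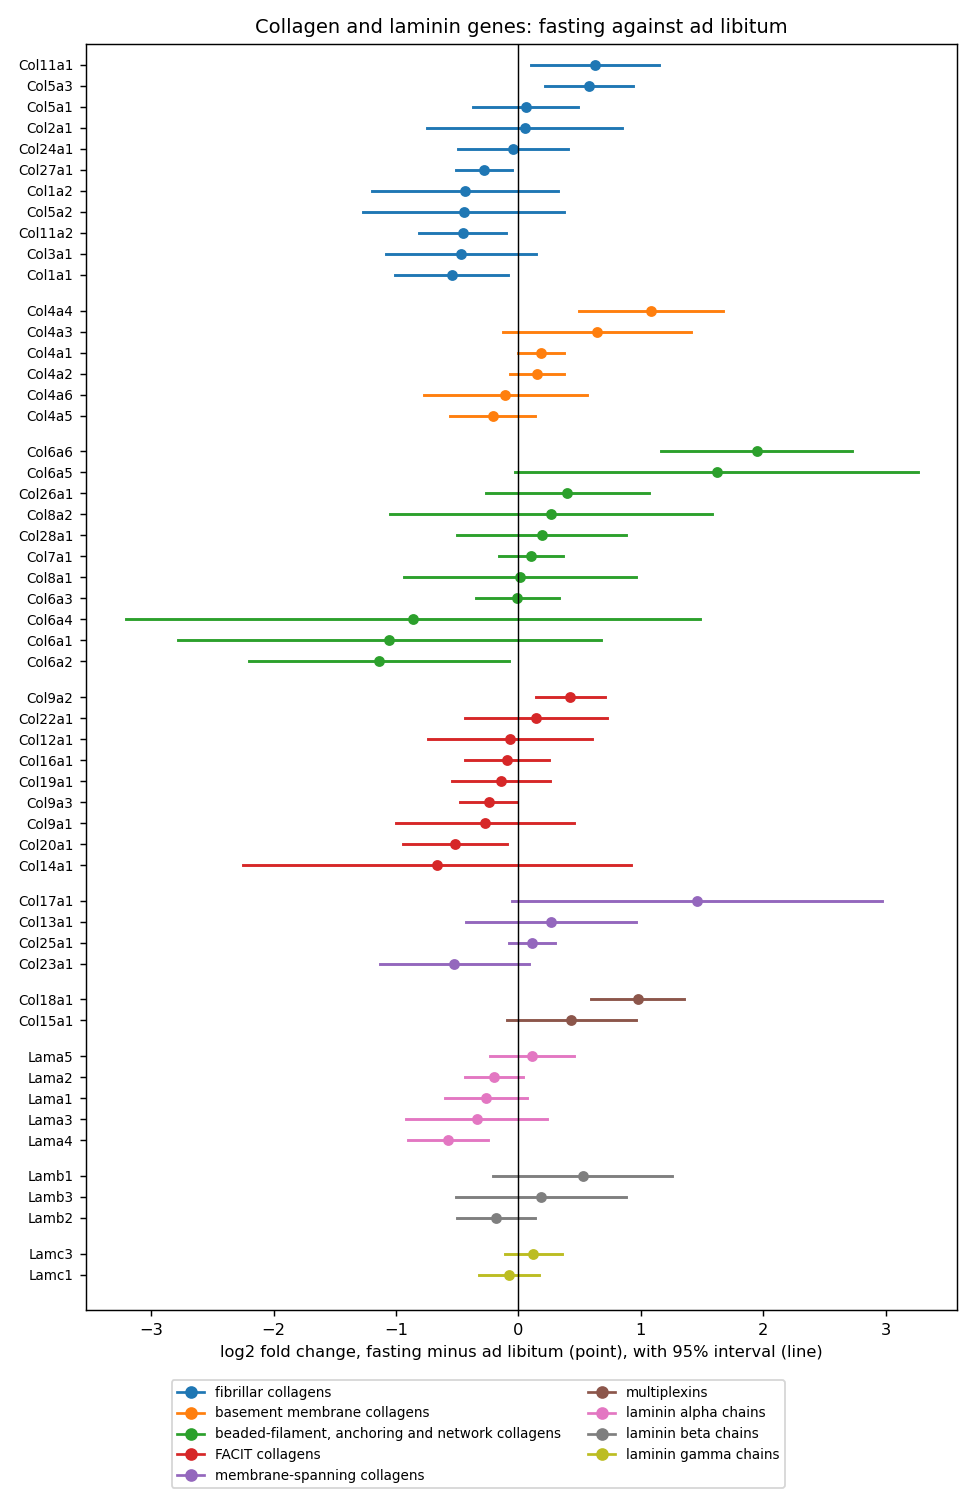
Log2 fold change of 53 of the 54 genes (x axis, fasting minus ad libitum, point) with its 95% interval (line), grouped by structural class in colour. The points lie on both sides of 0, from -1.14 for Col6a2 to 1.95 for Col6a6, and most intervals cross 0.

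Levels per length placed a few genes far above the rest. Per kilobase of the longest coding transcript, the highest was Col25a1, at a mean of 17.1 CPM per kilobase over the 6 libraries, a membrane-spanning collagen made by neurons and known as the precursor of a component of amyloid plaques. Next came Col4a2 (9.11), Col16a1 (7.17), Col4a1 (6.66), Lamc1 (6.57), Lamb2 (6.53), Col11a2 (5.69) and Col9a3 (5.26), all in CPM per kilobase. Those 8 genes held 55.1% of the summed level per kilobase of all 54. From Col4a2 down, neighbours in this order had overlapping ranges over the libraries, so their order is not resolved. The lowest was Col17a1, a collagen of epithelial attachment, at 0.0969 CPM per kilobase, 176.1-fold below Col25a1. The type I chain genes that dominate connective tissue were in between, with Col1a2 at 3.26 and Col1a1 at 1.41 CPM per kilobase.

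**Figure D2:**
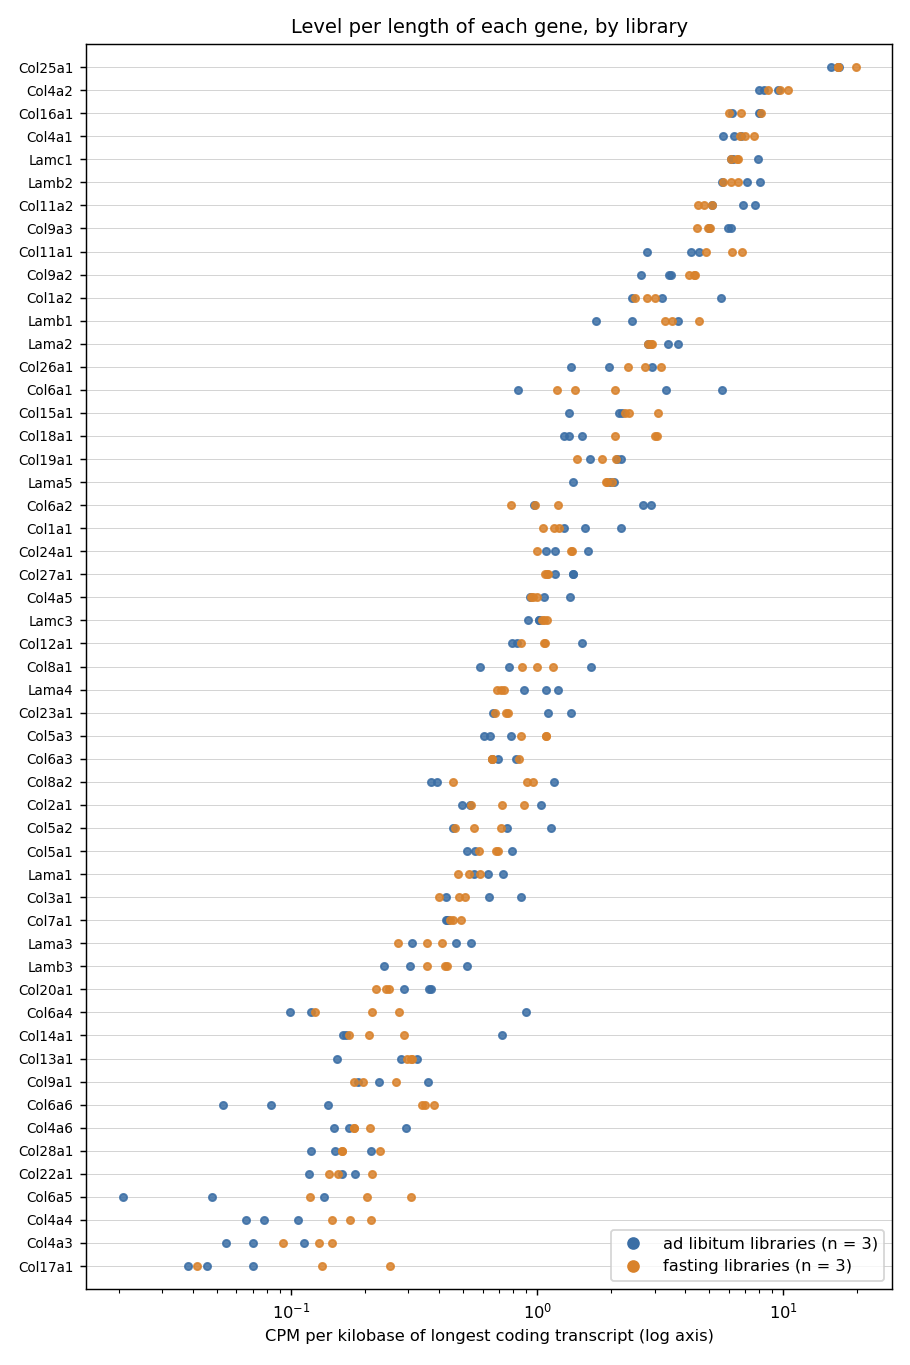
CPM per kilobase of the longest coding transcript (x axis, log scale) of 53 of the 54 genes in each library, blue for the 3 ad libitum and orange for the 3 fasting libraries. Col25a1 lies above every other gene in all libraries, from 15.6 to 19.7 CPM per kilobase, and the colours separate in few rows.

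The multiplexins, collagens of basement membranes with an interrupted helix, lay higher under fasting. Col18a1 (ENSMUSG00000001435), whose C-terminal fragment is endostatin, had the smallest p of all 54 genes. Its level was 7.52, 8.51 and 7.20 CPM in the ad libitum libraries and 16.9, 11.6 and 17.1 CPM in the fasting libraries. Every fasting library lay above every ad libitum library, and fasting replicate 2 was the lowest of its group. The means were 7.74 ± 0.682 and 15.2 ± 3.11 CPM (SD, n = 3), a difference of 0.97 ± 0.16 in log2 CPM (SE, edgeR adjusted p = 0.0599), with a 95% interval of 0.59 to 1.36. Over the 13 alternative analyses its adjusted p ran from 1.44e-05 to 0.290 and its log2 fold change stayed above 0. Col15a1 (ENSMUSG00000028339), the other multiplexin, was at 11.1, 6.94 and 11.4 CPM ad libitum and 15.9, 12.2 and 11.7 CPM under fasting, a difference of 0.43 ± 0.22 in log2 CPM (SE, edgeR adjusted p = 0.327). Its groups did not overlap, but fasting replicates 2 and 3 were close to ad libitum replicates 1 and 3.

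Of the markers of ependymal cells, which line the ventricles, and of choroid plexus, those of smallest p were Tmem212 and Ccdc153, both at low levels. Tmem212 was at 0.0423, 0.103 and 0.0214 CPM ad libitum and 2.16, 0.324 and 2.24 CPM under fasting (edgeR adjusted p = 0.0755). Ccdc153 was at 0.148, 0.413 and 0.0641 CPM ad libitum and 4.68, 0.855 and 6.78 CPM under fasting (edgeR adjusted p = 0.102). In both, as in Col18a1, fasting replicates 1 and 3 were high and replicate 2 was nearer to the ad libitum libraries. Foxj1, a more abundant ciliated cell marker, overlapped at 11.7, 14.6 and 13.0 CPM ad libitum and 14.0, 11.3 and 15.8 CPM under fasting (log2 fold change 0.07, SE 0.14, edgeR adjusted p = 0.826). Rsph1 (log2 fold change 1.39, SE 0.51, edgeR adjusted p = 0.201) and Dynlrb2 (log2 fold change 1.51, SE 0.64, edgeR adjusted p = 0.254) were also highest in fasting replicates 1 and 3, with overlap. Among all 12 ependymal and choroid plexus markers 6 were above 0, and the 6 below were Ttr, Kl, Aqp1, Folr1, Otx2 and Kcne2. Of the 12 markers 0 were called and none was at 0 in any library. Their summed level was 38.0 to 122 CPM ad libitum and 37.2 to 66.2 CPM under fasting. The part of these cells in the Col18a1 difference was not tested.

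Col18a1 has 2 starts in RefSeq, and counts per gene do not say which start was used. The 100 bases nearest to its upstream start that no annotated exon covers lie 19 to 118 bases before that start. They are shown because this gene had the smallest p, with GC boxes (GGGCGG, or CCGCCC on the other strand) in capitals (GRCm38.p6, chr10:77166549-77166648, minus strand, read 5′ to 3′).
Col18a1: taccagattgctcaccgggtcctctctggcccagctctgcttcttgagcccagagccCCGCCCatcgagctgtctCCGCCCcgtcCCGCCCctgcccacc
This stretch holds 3 GC boxes, and 24.7% of the 32851 RefSeq promoter windows hold at least 1 in the 100 bases before the start. It holds no CCAAT box (CCAAT or ATTGG, in 18.9% of windows) and no TATA box (TATAAA or TTTATA, in 5.56%). These matches describe letters only, and the sequences are from RefSeq, which gave a promoter for 39 of the 54 genes.

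Of the basement membrane collagens, the abundant pair differed little between diets and the scarce pair lay higher under fasting. Col4a1 (ENSMUSG00000031502) and Col4a2 (ENSMUSG00000031503) make the type IV network of nearly all basement membranes. Col4a1 was at 44.4, 37.7 and 41.8 CPM ad libitum and 46.1, 44.2 and 50.2 CPM under fasting, a difference of 0.18 ± 0.08 in log2 CPM (SE, edgeR adjusted p = 0.260). Col4a2 was at 61.6, 51.4 and 54.1 CPM ad libitum and 56.1, 62.5 and 67.1 CPM under fasting, a difference of 0.15 ± 0.09 in log2 CPM (SE, edgeR adjusted p = 0.404). Their groups overlapped, and the 95% intervals were -0.01 to 0.37 and -0.07 to 0.37 on the log2 scale. Col4a3 and Col4a4 belong, with Col4a5, to the network best known from the kidney filter. Col4a4 (ENSMUSG00000067158) was at 0.783, 1.07 and 0.663 CPM ad libitum and 1.75, 1.48 and 2.13 CPM under fasting, with no overlap. This was a difference of 1.09 ± 0.25 in log2 CPM (SE, edgeR adjusted p = 0.0861), and over the 13 alternatives the adjusted p ran from 0.0157 to 0.315. Col4a3 (ENSMUSG00000079465) was at 0.466, 0.599 and 0.962 CPM ad libitum and 0.796, 1.11 and 1.26 CPM under fasting, a difference of 0.64 ± 0.33 in log2 CPM (SE, edgeR adjusted p = 0.324), and ad libitum replicate 3 lay above fasting replicate 1. Col4a5 and Col4a6 had log2 fold changes of -0.21 and -0.11, and both were highest in ad libitum replicate 3.

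Type IV collagen genes lie head to head in pairs, and the stretches between their starts are shown because both genes of a pair start there. In GENCODE M21 on GRCm38, the outermost starts of Col4a4 and Col4a3 are 71 bases apart on chromosome 1, those of Col4a6 and Col4a5 1308 bases apart on the X chromosome, and the first exons of Col4a1 and Col4a2 overlap by 22 bases on chromosome 8. The first line is the whole gap between Col4a4 and Col4a3 (chr1:82586850-82586920, plus strand, read toward Col4a3), and the second is the overlap of Col4a1 and Col4a2 (chr8:11312805-11312826, plus strand, read toward Col4a2), with a GC box in capitals.
Col4a4-Col4a3: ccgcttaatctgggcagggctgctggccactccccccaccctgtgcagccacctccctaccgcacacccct
Col4a1-Col4a2: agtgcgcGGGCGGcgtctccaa
The gap of 71 bases holds no GC, CCAAT or TATA box, which 20.7%, 13.3% and 4.41% of windows of that length hold. The overlap of 22 bases holds 1 GC box, which 7.19% of windows of that length hold. Those windows lie just before a start, whereas the overlap lies within the first exons. Because Col4a1 and Col4a2 overlap on opposite strands and the use of strand in counting is not given, a few reads of each could count for the other.

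Among laminins, the alpha 4 chain had the smallest p and lay lower under fasting. Lama4 (ENSMUSG00000019846), the alpha chain of the endothelial basement membrane, was at 5.36, 7.33 and 6.56 CPM ad libitum and 4.32, 4.44 and 4.16 CPM under fasting. All fasting libraries were below all ad libitum libraries and close to each other. The means were 6.42 ± 0.995 and 4.31 ± 0.141 CPM (SD, n = 3), a difference of -0.58 ± 0.14 in log2 CPM (SE, edgeR adjusted p = 0.0950), with an adjusted p of 0.0201 to 0.315 over the 13 alternatives. Lama2 (ENSMUSG00000019899), the alpha chain of laminin at the astrocyte side of vessels, was at 27.2, 35.8 and 32.5 CPM ad libitum and 28.0, 27.1 and 28.1 CPM under fasting, a difference of -0.20 ± 0.10 in log2 CPM (SE, edgeR adjusted p = 0.321), and ad libitum replicate 1 lay within the fasting range. Lama1, found in laminin of the pia and of the parenchymal membrane, was at 5.25, 6.03 and 6.90 CPM ad libitum and 5.59, 5.04 and 4.54 CPM under fasting, a difference of -0.26 ± 0.14 in log2 CPM (SE, edgeR adjusted p = 0.354), with overlap. Lama3, a chain of epithelial laminin, had a log2 fold change of -0.34. Lama5, the second alpha chain of endothelial laminin, was the one alpha chain above 0, at 0.11, and this became -0.05 without ad libitum replicate 2.

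Of the beta and gamma chains given here, all but Lamc3 overlapped between diets. Lamb1 (ENSMUSG00000002900) was at 21.7, 14.0 and 10.0 CPM ad libitum and 26.4, 19.1 and 20.4 CPM under fasting, a difference of 0.53 ± 0.30 in log2 CPM (SE, edgeR adjusted p = 0.383). Ad libitum replicate 1 was as high as the fasting libraries, and replicates 2 and 3 were lower. Lamb2, the beta chain of mature vessels and synapses, was at 31.7, 40.2 and 45.3 CPM ad libitum and 34.5, 31.9 and 36.9 CPM under fasting, a difference of -0.18 ± 0.13 in log2 CPM (SE, edgeR adjusted p = 0.488). Lamb3, a chain of epithelial laminin, was at 1.16, 2.52 and 1.47 CPM ad libitum and 1.73, 2.06 and 2.09 CPM under fasting, a difference of 0.19 ± 0.29 in log2 CPM (SE, edgeR adjusted p = 0.757). Both genes overlapped between diets. Lamc1, the gamma chain of most laminins, was at 47.5, 60.2 and 46.5 CPM ad libitum and 46.9, 49.3 and 50.1 CPM under fasting, a difference of -0.08 ± 0.10 in log2 CPM (SE, edgeR adjusted p = 0.715), with ad libitum replicate 2 the highest. Lamc3 was at 5.97, 5.37 and 5.98 CPM ad libitum and 6.16, 6.24 and 6.46 CPM under fasting, a difference of 0.12 ± 0.10 in log2 CPM (SE, edgeR adjusted p = 0.523), with the fasting libraries just above the others.

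Markers of the vessel cells that make these chains lay mostly lower under fasting. Of 16 endothelial markers 13 were below 0 and 0 were called, with a median log2 fold change of -0.12 and the smallest p in Tek (log2 fold change -0.55, SE 0.10, edgeR adjusted p = 0.0627) and Kdr (log2 fold change -0.49, SE 0.09, edgeR adjusted p = 0.0638), both receptors of vessel growth factors. The transporter genes Slco1a4 (log2 fold change 0.28, SE 0.05, edgeR adjusted p = 0.0685) and Slc2a1 (log2 fold change 0.24, SE 0.05, edgeR adjusted p = 0.0815) lay the other way, and like Tek and Kdr did not overlap between diets. Their summed level was 455 to 515 CPM ad libitum and 471 to 487 CPM under fasting. Of 14 pericyte and smooth muscle markers 9 were below 0 and 0 were called, with a median of -0.09, and Anpep was at -0.78 and Cspg4 at -0.27 on the log2 scale. The 5 above 0 were Cnn1, Atp13a5, Notch3, Myh11 and Des. Cnn1 was at 1.82 without overlap, at low levels of 0.0207 to 0.169 CPM ad libitum and 0.250 to 0.469 CPM under fasting. The summed level of the 14 markers was 249.6 to 275 CPM ad libitum and 219 to 236 CPM under fasting, without overlap. Rgs5 was the largest part of this sum, at 137, 127 and 108 CPM ad libitum and 89.9, 97.1 and 98.9 CPM under fasting. No marker of either list was at 0 in any library. The part of these cells in the Lama4 difference was not tested.

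**Figure D3:**
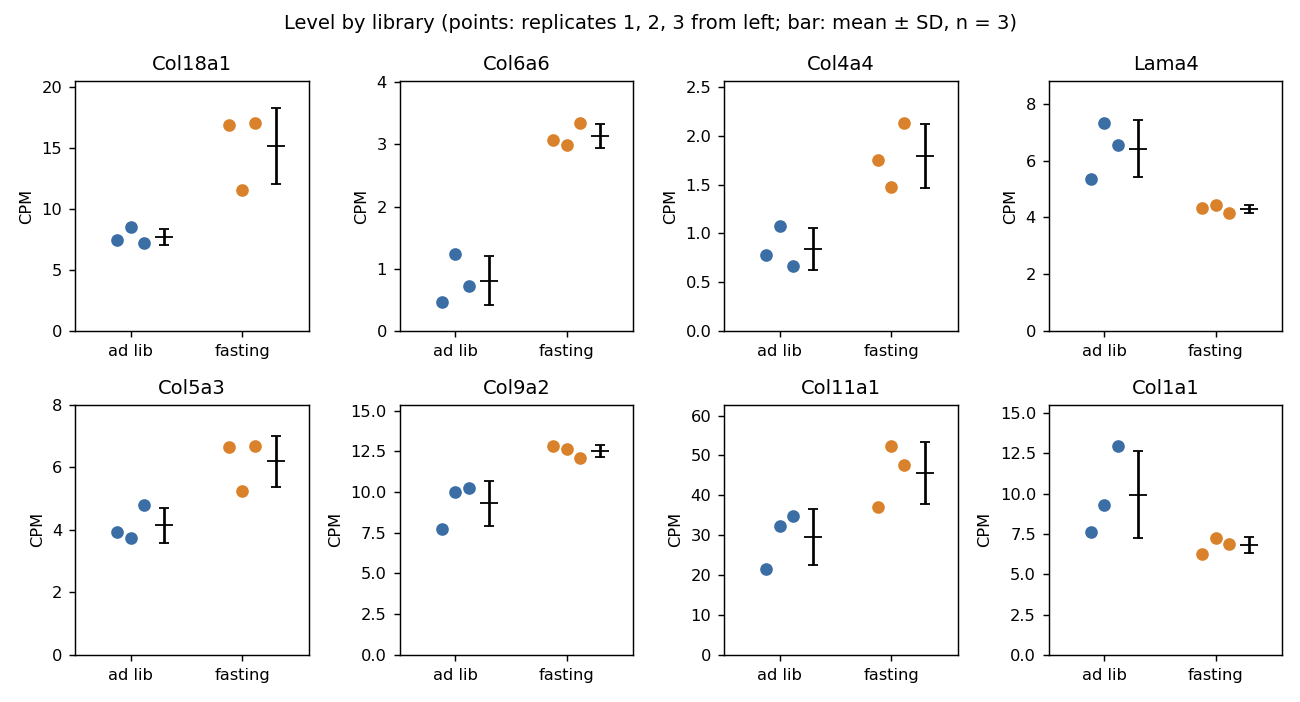
CPM (y axis, from 0) in each library of the 8 genes Col18a1, Col6a6, Col4a4, Lama4, Col5a3, Col9a2, Col11a1 and Col1a1, with mean ± SD (n = 3) beside the points. The groups do not overlap in any of the 8 genes, and in proportion the gap is widest in Col6a6, from 1.24 CPM in the highest ad libitum library to 2.98 CPM in the lowest fasting library.

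Fibrillar collagens lay on both sides of 0, 4 above and 7 below. The type I and III chains, the main fibrils of fibroblasts, lay lower. Col1a1 (ENSMUSG00000001506) was at 7.62, 9.27 and 12.9 CPM ad libitum and 6.25, 7.26 and 6.91 CPM under fasting, a difference of -0.55 ± 0.19 in log2 CPM (SE, edgeR adjusted p = 0.183), without overlap. Col1a2 was at 13.0, 17.2 and 29.9 CPM ad libitum and 16.1, 13.3 and 14.9 CPM under fasting, a difference of -0.44 ± 0.31 in log2 CPM (SE, edgeR adjusted p = 0.484), and Col3a1 had a log2 fold change of -0.47 and Col5a2 of -0.45. Ad libitum replicate 3 was the highest of the 6 libraries in all 4 genes. Without it the log2 fold changes were -0.31 for Col1a1, -0.03 for Col1a2, -0.20 for Col3a1 and -0.08 for Col5a2.

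Markers of meningeal and perivascular fibroblasts were also highest in that library, in 12 of 17 genes. So were 7 of 10 astrocyte markers, 8 of 14 dopamine neuron markers and all 6 red blood cell genes. It was the highest library for 1 of 16 endothelial and 0 of 10 oligodendrocyte markers. Of the 17 measured fibroblast markers 15 were below 0, 0 were called and the median log2 fold change was -0.62. Crabp2 was at 0.910, 2.56 and 3.33 CPM ad libitum and 0.568, 0.624 and 0.576 CPM under fasting (log2 fold change -1.94, SE 0.47, edgeR adjusted p = 0.0969), and Slc22a6 at 1.99, 3.96 and 5.47 CPM ad libitum and 1.27, 1.92 and 1.24 CPM under fasting (log2 fold change -1.37, SE 0.39, edgeR adjusted p = 0.130). The 2 markers above 0 were Dcn (0.08) and Lum (0.07). The summed level of the list was 943 to 1308 CPM ad libitum and 794 to 949 CPM under fasting, and no marker was at 0 in any library. The largest parts of this sum were Ptgds, at 402 to 613 CPM ad libitum and 314 to 403 CPM under fasting, and Apod, at 343 to 485 and 282 to 343 CPM. The part of fibroblasts in the values of the type I and III chains was not tested.

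The other fibrillar genes include the type V and XI chains, which set the width of fibrils. Col5a3 (ENSMUSG00000004098) was at 3.94, 3.74 and 4.79 CPM ad libitum and 6.66, 5.25 and 6.67 CPM under fasting, a difference of 0.58 ± 0.15 in log2 CPM (SE, edgeR adjusted p = 0.109), without overlap. Col11a1 (ENSMUSG00000027966) was at 21.4, 32.4 and 34.8 CPM ad libitum and 37.1, 52.3 and 47.7 CPM under fasting, a difference of 0.63 ± 0.21 in log2 CPM (SE, edgeR adjusted p = 0.183), also without overlap, and ad libitum replicate 1 was the lowest. Its partner Col11a2 (ENSMUSG00000024330) lay the other way, at 31.1, 46.6 and 41.7 CPM ad libitum and 27.1, 31.05 and 28.9 CPM under fasting, a difference of -0.46 ± 0.15 in log2 CPM (SE, edgeR adjusted p = 0.164). Its groups were separated by no more than 31.06 against 31.05 CPM, in ad libitum replicate 1 and fasting replicate 2. Col27a1, a fibrillar collagen of cartilage, was at 8.96, 10.6 and 10.7 CPM ad libitum and 8.21, 8.32 and 8.42 CPM under fasting, a difference of -0.28 ± 0.10 in log2 CPM (SE, edgeR adjusted p = 0.176), without overlap. Col5a1 (0.06), Col24a1 (-0.04) and Col2a1 (0.05) had log2 fold changes near 0, and each changed sign with at least 1 library left out.

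Type VI collagens form beaded filaments around cells, from Col6a1, Col6a2 and one of 4 longer chains. The longer chains Col6a6 and Col6a5 lay higher under fasting, and Col6a1 and Col6a2 lower. Col6a6 (ENSMUSG00000043719) was at 0.466, 1.24 and 0.727 CPM ad libitum and 3.07, 2.98 and 3.35 CPM under fasting, with counts from 22 to 157. The means were 0.810 ± 0.393 and 3.13 ± 0.191 CPM (SD, n = 3), a difference of 1.95 ± 0.33 in log2 CPM (SE, edgeR adjusted p = 0.0599), with an adjusted p of 6.62e-06 to 0.290 over the 13 alternatives. The fasting libraries lay close together and above all others. Col6a5 was at 0.445, 1.26 and 0.192 CPM ad libitum and 1.89, 1.11 and 2.86 CPM under fasting, a difference of 1.62 ± 0.68 in log2 CPM (SE, edgeR adjusted p = 0.251). Ad libitum replicate 2 exceeded fasting replicate 2, the fasting library in which Tmem212 and Ccdc153 were lowest, and the part of ependymal cells was not tested. Col6a5 and Col6a6 lie next to each other and share 3.98% and 4.31% of their 31-base words with other genes, most of all with each other, and an exon of Col6a6 overlaps a gene on the other strand.

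The core chains of type VI differed mainly between ad libitum libraries. Col6a1 was at 3.43, 23.0 and 13.7 CPM ad libitum and 4.96, 5.85 and 8.49 CPM under fasting, -1.06 on the log2 scale with an interval of -2.78 to 0.67. Col6a2 (ENSMUSG00000020241) was at 4.53, 12.5 and 13.5 CPM ad libitum and 3.64, 4.55 and 5.65 CPM under fasting, a difference of -1.14 ± 0.43 in log2 CPM (SE, edgeR adjusted p = 0.220), with an adjusted p of 0.0177 to 0.496 over the 13 alternatives. In both, ad libitum replicates 2 and 3 were above all fasting libraries and replicate 1 was not. Col6a3, the usual long chain, had a log2 fold change of -0.01, with an interval of -0.35 to 0.33. Col6a4 was at 0.889, 6.61 and 0.727 CPM ad libitum and 1.57, 0.925 and 2.03 CPM under fasting. Ad libitum replicate 2 was far above the other 5 libraries, and the log2 fold change of -0.86 became 0.89 without that library.

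The stretch of 100 bases nearest to the start of Col6a6 that no annotated exon covers lies 76 to 175 bases before that start. It is shown because this gene had the largest log2 fold change, with GC boxes in capitals (GRCm38.p6, chr9:105828161-105828260, minus strand).
Col6a6: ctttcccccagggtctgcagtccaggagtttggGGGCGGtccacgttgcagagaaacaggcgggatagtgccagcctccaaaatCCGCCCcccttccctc
It holds 2 GC boxes, 1 on each strand, and no CCAAT or TATA box. The other genes of this class overlapped between diets except Col7a1. Col8a1 and Col8a2, collagens of vessel walls and of the cornea, were both highest in ad libitum replicate 3. Their log2 fold changes were 0.01 and 0.27. Col7a1, of the anchoring fibrils of skin, was at 0.10, with fasting libraries above the others by a small margin. Col26a1 was at 0.40 and Col28a1 at 0.19.

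FACIT collagens, which sit on the surface of fibrils, included genes on both sides of 0. Col9a2 (ENSMUSG00000028626), a chain of type IX collagen, was at 7.73, 9.99 and 10.2 CPM ad libitum and 12.8, 12.6 and 12.1 CPM under fasting, a difference of 0.43 ± 0.12 in log2 CPM (SE, edgeR adjusted p = 0.121), without overlap. Its partner Col9a3 (ENSMUSG00000027570) was at 15.2, 18.2 and 18.7 CPM ad libitum and 15.0, 13.6 and 15.4 CPM under fasting, a difference of -0.24 ± 0.10 in log2 CPM (SE, edgeR adjusted p = 0.232). Here ad libitum replicate 1 lay within the fasting range, and replicates 2 and 3 were higher. Col20a1 was at 1.86, 1.45 and 1.82 CPM ad libitum and 1.25, 1.11 and 1.22 CPM under fasting, a difference of -0.52 ± 0.18 in log2 CPM (SE, edgeR adjusted p = 0.174), without overlap, and its exons overlap another gene on the same strand. Col16a1, the most abundant FACIT gene per length, was at 32.3, 42.0 and 41.4 CPM ad libitum and 31.3, 42.2 and 34.9 CPM under fasting, a difference of -0.09 ± 0.14 in log2 CPM (SE, edgeR adjusted p = 0.746). Its groups overlapped fully. Col14a1 was at 1.08, 4.67 and 1.05 CPM ad libitum and 1.34, 1.85 and 1.11 CPM under fasting, again with ad libitum replicate 2 alone high, and its log2 fold change of -0.66 became 0.42 without it. Col19a1, which interneurons make and which is known from synapse formation, was at -0.14, Col9a1 at -0.27, Col22a1 at 0.14 and Col12a1 at -0.07, all with overlap.

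Membrane-spanning collagens stay anchored in the cell surface and can be shed. Col25a1 (ENSMUSG00000058897) was at 112, 105 and 113 CPM ad libitum and 132, 112 and 112 CPM under fasting, a difference of 0.11 ± 0.08 in log2 CPM (SE, edgeR adjusted p = 0.470), with an interval of -0.07 to 0.30. Fasting replicate 1 was high and the other 5 libraries lay close together. Col23a1 was at 3.73, 6.24 and 7.74 CPM ad libitum and 3.80, 4.30 and 4.22 CPM under fasting, a difference of -0.52 ± 0.26 in log2 CPM (SE, edgeR adjusted p = 0.308), with ad libitum replicate 1 below all fasting libraries. Col17a1 had 10 to 62 counts per library, at 0.254, 0.392 and 0.214 CPM ad libitum and 1.41, 0.231 and 0.746 CPM under fasting, a difference of 1.46 ± 0.63 in log2 CPM (SE, edgeR adjusted p = 0.259). Fasting replicates 1 and 3 were high and replicate 2 was at the ad libitum level. The ependymal genes Tmem212 and Ccdc153 were also highest in fasting replicates 1 and 3, and their part in the Col17a1 values was not tested. Col13a1 was at 0.27 on the log2 scale.

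Chains that share a molecule or replace each other were set against each other within each library, which removes the scaling between libraries. For 15 pairs, chosen after the values of single genes were seen, the ratio of CPM per kilobase was taken. The diets did not overlap in 4 of the 15 (26.7%), a share near the 27.5% of single genes tested whose diets did not overlap, and these ratios are given as a description. Col11a1 over Col11a2 was 0.545, 0.549 and 0.658 in the ad libitum libraries and 1.08, 1.33 and 1.30 in the fasting libraries, a difference of 1.08 on the log2 scale. Col11a2 thus had the higher level per length in each ad libitum library and Col11a1 in each fasting library. Col9a2 over Col9a3 was 0.530, 0.572 and 0.571 and 0.889, 0.967 and 0.820, a difference of 0.68. Lama4 over Lama2 was 0.313, 0.326 and 0.321 and 0.245, 0.260 and 0.235, a difference of -0.37. In these 3 pairs the libraries of a diet lay close together, ad libitum replicate 1 included. Lama5 over Lama4, the alpha chains of endothelial laminin, was 2.32, 1.15 and 1.82 and 2.81, 2.60 and 2.81, a difference of 0.69. Each of the 4 had a two-sided exact permutation p of 0.1, the smallest that 3 against 3 libraries can give, and 0.375 after adjustment over the 15 pairs. Ratios without overlap always give this smallest p, so it adds nothing to the lack of overlap. Col4a1 over Col4a2 stayed at 0.702, 0.716 and 0.754 and 0.801, 0.690 and 0.729, and Lamb1 over Lamb2 overlapped at 0.666, 0.339 and 0.216 and 0.746, 0.583 and 0.537.

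**Figure D4:**
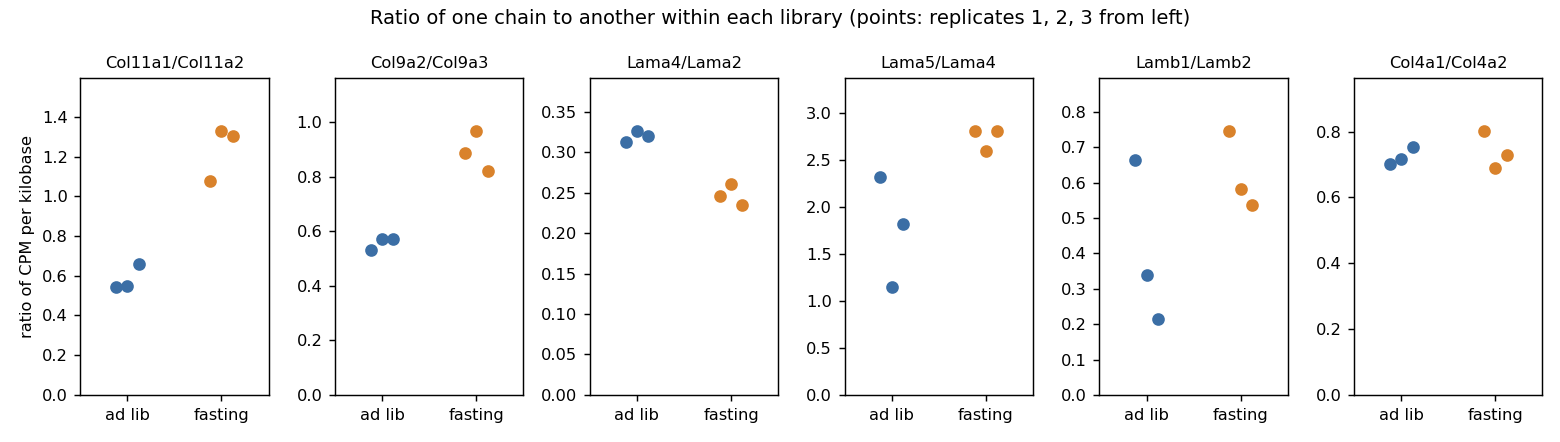
Ratio of CPM per kilobase of one chain to another (y axis, from 0) in each library for 6 pairs, blue for ad libitum and orange for fasting. The ratios of Col11a1 to Col11a2 and of Col9a2 to Col9a3 are higher in all fasting libraries, that of Lama4 to Lama2 is lower, and that of Col4a1 to Col4a2 overlaps.

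The 100 bases before the starts of Col11a1 and Col11a2, outside annotated exons, are shown because the partners lay in opposite directions (GRCm38.p6, chr3:114030440-114030539, plus strand, and chr17:34039038-34039137, plus strand), with GC boxes and a CCAAT box (as ATTGG) in capitals.
Col11a1: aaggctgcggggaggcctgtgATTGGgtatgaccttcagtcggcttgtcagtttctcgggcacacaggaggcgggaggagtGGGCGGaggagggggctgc
Col11a2: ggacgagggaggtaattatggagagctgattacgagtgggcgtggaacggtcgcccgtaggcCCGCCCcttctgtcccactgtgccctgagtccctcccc
Both stretches hold 1 GC box, that of Col11a1 also holds 1 CCAAT box, and neither holds a TATA box.

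Much of the variation among these genes lay between ad libitum libraries. The highest ad libitum library exceeded the lowest by a median of 1.62-fold over the 54 genes, and the highest fasting library the lowest by 1.27-fold. Over all genes tested the same medians were 1.24-fold and 1.15-fold. The ad libitum group had the wider range in 46 of 54 genes (85.2%), where 67.4% of all genes tested did. Ad libitum replicate 3 was the highest library in 19 of the 54 genes (35.2%), where it was for 17.9% of all genes tested, among them Col1a1, Col1a2, Col3a1, Col5a2, Col8a1 and Col12a1. Ad libitum replicate 1 was the lowest in 19 (35.2%), where it was for 19.5% of all genes tested. Ad libitum replicate 2 was the highest in 11, with Col6a4, Col14a1 and Col6a1 exceeding the next library 3.26-fold, 2.52-fold and 1.68-fold.

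**Figure D5:**
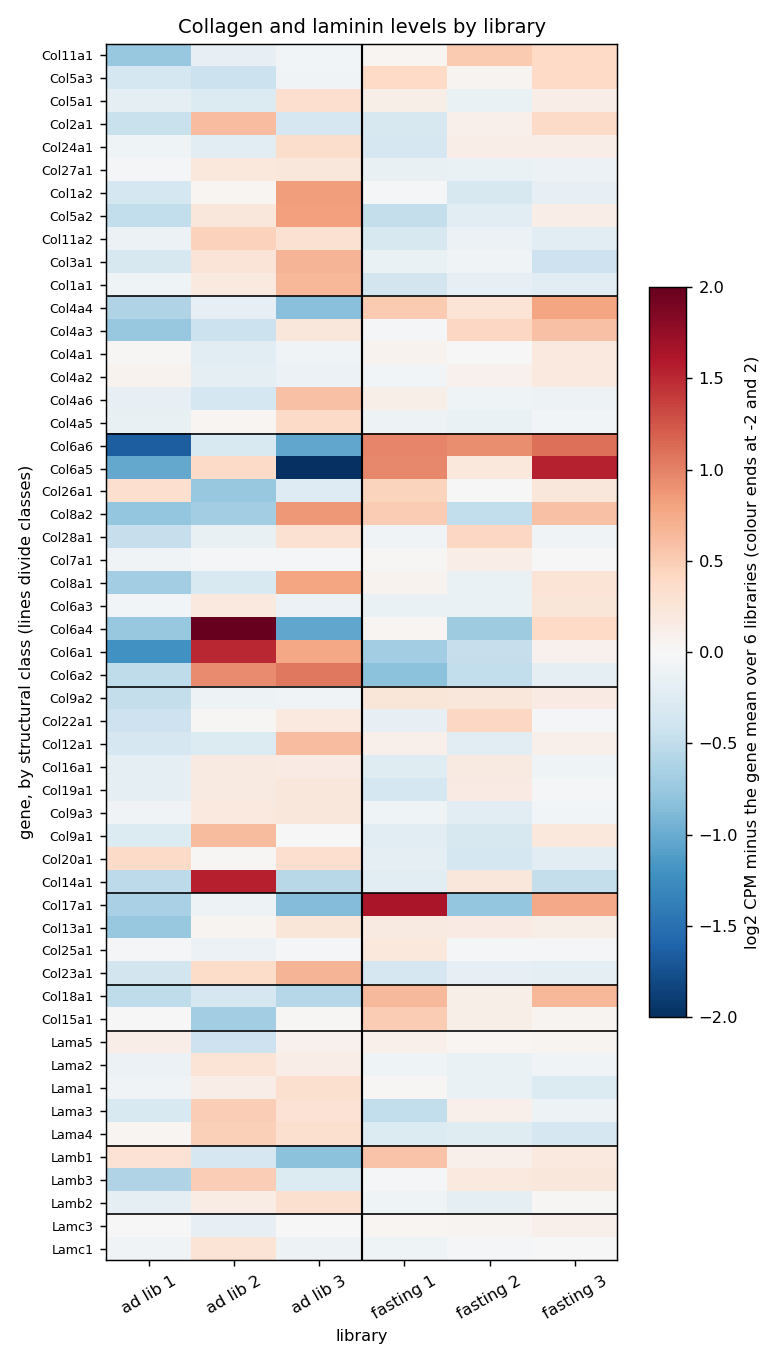
Log2 CPM of 53 of the 54 genes (rows, by structural class) minus its mean over the 6 libraries (columns), red for above and blue for below the mean. The 3 fasting columns are red for Col6a6, Col4a4 and Col18a1.

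Other genes of the matrix were taken from lists, and 1 of them passed the threshold. Of 32 genes that fold, modify, trim or cross-link collagens, 1 was called, the procollagen protease gene Adamts2, at 23.1, 28.4 and 25.6 CPM ad libitum and 53.3, 52.8 and 54.4 CPM under fasting (log2 fold change 1.06, SE 0.08, edgeR adjusted p = 0.0258). Plod1, a lysyl hydroxylase, was at -0.46. The median of that list was -0.10, with 22 of 32 below 0. Of 38 other matrix genes 0 were called and 26 were below 0, with a median of -0.12. The smallest p was that of Hspg2, which encodes perlecan, the heparan sulphate proteoglycan that binds laminin and type IV collagen in basement membranes, at 16.0, 15.7 and 14.9 CPM ad libitum and 11.8, 11.1 and 11.6 CPM under fasting (log2 fold change -0.44, SE 0.07, edgeR adjusted p = 0.0568). Every fasting library lay below every ad libitum library for it. Smoc2, a calcium-binding matrix protein, was at -1.62. Of 25 receptor genes for collagens and laminins 0 were called and 18 were below 0, with a median of -0.14. Itgb4, the integrin chain that binds laminin, was at -0.76 and Ddr1, a collagen-binding kinase, at -0.44. Of 18 genes of TGF-beta signalling, a pathway that drives collagen genes, 0 were called and 14 were below 0, with a median of -0.23. Smad6 and Smad7, which encode inhibitory Smad proteins, were at -0.82 and -0.36.

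Markers of other brain cells were counted in the same way, and 1 of these genes was called, the microglial Fcrls (log2 fold change -1.11, SE 0.14, edgeR adjusted p = 0.0422). All 10 microglia markers were below 0, with a median of -0.62. All 10 oligodendrocyte markers were below 0 (median -0.57), with the smallest p in Sox10 (-0.76) and Ermn (-0.78). Of 8 oligodendrocyte precursor markers 7 were below 0 (median -0.11), with Sox10 and Cspg4 first. Sox10 is also in the oligodendrocyte list and Cspg4 in the pericyte list. Neu4 (-0.06) and Vcan (-0.09) were near 0, and C1ql1 lay above 0, at 0.28. Of 10 astrocyte markers 8 were below 0 (median -0.20), with Aqp4 (-1.01) and S100b (-0.44) first. Of 10 neuron markers 3 were below 0 (median 0.10), with Stmn2 (0.23) and Tubb3 (0.15) first. Of 14 dopamine neuron markers 10 were below 0 (median -0.24), with Sox6 (-0.50) and Calb1 (0.65) first. All 6 red blood cell genes were below 0 (median -1.13), with Hbb-bt (-1.32) and Slc4a1 (-1.11) first. Their summed level was 429.9, 632 and 1737 CPM ad libitum and 356, 255 and 657 CPM under fasting, so the diets overlapped, and ad libitum replicate 3 was the highest in all 6 genes. Of 12 cholinergic and hypothalamic genes 7 were below 0 (median -0.28), with Gal (1.96) and Slc5a7 (-3.12) first. Their summed level was 623 CPM in ad libitum replicate 2, against 16.0 to 170.1 CPM in the other libraries. Pmch alone was at 432 CPM in that library. Of the 12 genes 7 were highest in it, and Col6a4, Col14a1 and Col6a1 were also high there. It was also the highest library for all 10 oligodendrocyte and 7 of 10 microglia markers, and for 0 of 10 neuron markers. The part of any of these cells in those collagen values was not tested.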

How the data were processed

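Polyadenylated RNA from the substantia nigra was sequenced in 6 libraries, 3 per diet, made with a directional kit per the labels' protocols. The authors deposited 1 table of estimated counts, whole numbers not scaled between libraries, in which the smallest sum of a gene over the libraries was 60. The submitters' processing notes name Salmon, DESeq2 1.40.2 and the GRCm39 (mm39) build. The sources used here do not state the Salmon version, annotation release, use of strand or rounding. Columns were matched to libraries by the labels, and 0 columns of values were unused.

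Rounding changed 0 values. filterByExpr in edgeR 4.0.16 (R 4.3.3) kept 19109 genes. After TMM scaling, diets were compared by the two-sided quasi-likelihood test with robust shrinkage, Benjamini-Hochberg adjustment over all genes tested and a threshold of 0.05. Standard errors are the log2 fold change over the square root of F, and 95% intervals use the test's degrees of freedom. Alternatives were DESeq2 1.42.0, limma-voom 3.58.1, RLE factors, other filters, no robust shrinkage, a replicate block, and each library left out. GENCODE M21 (GRCm38), another build than the files', gave lengths, exon overlaps and 31-base words shared with other genes, which were under 10% for all 54 genes. Exons of 3 of the 54 genes overlapped another gene on the same strand (Col3a1, Col7a1 and Col20a1) and those of 12 on the other strand.

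Of the 54 genes, 1 is in the counts and medians but is not reported here on its own. The members and lists were chosen with earlier results of these data known. Values by library are given for the 3 genes of smallest p in each class, the 8 of highest CPM per kilobase and further genes chosen after their values were seen. From each list the called genes are named, or else the 2 genes of smallest p. All other named list genes, such as Foxj1, Slco1a4, Slc2a1, Th, Plod1, Rsph1, Cnn1, Rgs5, Ptgds and Dcn, were added after their values were seen.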

Additional observations from a re-analysis of the deposited data

How the results depend on the processing

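The count of 0 called collagen and laminin genes was 8 with DESeq2, 1 with the replicate block (where it called 1.49% of genes) and 0 to 8 with a library left out. It was 0 with limma-voom and with no robust shrinkage. It was also 0 with RLE factors, no filter and a mean count of at least 50, for which shares over all genes are not given here. Their median log2 fold change was -0.12 to 0.12 with a library left out. The 95 genes called in the whole table were 1395 with DESeq2, 285 with the replicate block, 32 with limma-voom, 9 without robust shrinkage and 0 to 1187 with a library left out. The 2 called genes, of 245 tested from the lists, were 60 with DESeq2 (where it called 7.4% of genes) and 17 with the replicate block (1.49%). They were 1 with limma-voom (0.167%), 1 without robust shrinkage (0.0471%) and 0 to 46 with a library left out (0% to 6.18%). Where a library was left out, its group had 2 libraries. The list counts and chain ratios were rerun as alternatives chosen after seeing the data. The labels do not say what shares a replicate number, and same-numbered libraries had correlations of deviations of 0.21, -0.04 and -0.11, so the numbers were not taken as pairs. The 1 member called with the replicate block was Col11a1 (log2 fold change 0.64, edgeR adjusted p = 0.0397, against 0.0303 to 0.417 over the 13 alternatives).

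Of 684 values of 53 genes under 13 alternatives, 640 kept their direction and side of the threshold, 19 passed it and 25 changed sign. All 25 arose with a library left out, in 15 genes, whose log2 fold changes then ranged as follows: Col14a1 -1.005 to 0.42, Col9a1 -0.46 to 0.040, Col22a1 -0.051 to 0.28, Col12a1 -0.23 to 0.31, Col4a6 -0.30 to 0.24, Col6a4 -1.31 to 0.89, Col8a2 -0.0056 to 1.02, Col6a3 -0.15 to 0.085, Col8a1 -0.26 to 0.57, Col5a1 -0.060 to 0.27, Col24a1 -0.16 to 0.14, Col2a1 -0.14 to 0.47, Lama5 -0.052 to 0.21, Lamb3 -0.030 to 0.56, Lamc1 -0.14 to 0.047. The cause was not tested. The 4 chain ratios without overlap could not change direction with a library left out, because their diets did not overlap. Their log2 differences were then 1.03 to 1.18 for Col11a1 over Col11a2 and 0.61 to 0.73 for Col9a2 over Col9a3. They were -0.41 to -0.34 for Lama4 over Lama2 and 0.42 to 0.92 for Lama5 over Lama4. Depth was lowest for Col17a1, Col28a1, Col4a3, Col13a1 and Col9a1, whose mean counts were under 50.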
